A study of Mus musculus with 8 samples.

Results

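The genes described here are Adgrv1, Pdzd7, Whrn, Clrn1, Ush1g, Ptprq, Xirp2, Loxhd1 and Grxcr1, 9 of the 78317 genes in the deposited table, taken by gene name as the ankle-link complex and other membrane and scaffold genes of the hair bundle. RNA was measured in the cochlear basilar membrane, the sheet that carries the organ of Corti, of mice at postnatal day 6, in 4 homo and 4 hete libraries. The homo libraries carry the genotype tag of a Dnajc17 conditional knockout and the hete libraries that of wild type, while the hete titles may imply a mutant allele in the controls; the sources used here do not settle this. Neither the driver of the deletion nor its exons are given in the sources used here, and the labels do not say whether each library came from its own animal. All p-values therefore refer to the variation among these 8 libraries, part of which may be technical.

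Hair cells detect sound with a bundle of stereocilia, actin-filled protrusions joined by extracellular links. Ankle links connect the bases of developing stereocilia; they contain the large adhesion receptor Adgrv1 and are held inside the cell by the PDZ scaffolds Whrn (whirlin) and Pdzd7. Ptprq makes the shaft connectors higher up, while Ush1g (Sans) sits in the scaffold that anchors the upper end of the tip link. Variants of Adgrv1, Whrn, Clrn1 and Ush1g in people cause Usher syndrome, the combined loss of hearing and sight. In the mouse, ankle links are present while the bundle grows and are lost from mature auditory bundles.

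Because Adgrv1, Pdzd7 and Whrn form the core of the ankle-link complex, the 250 bases before their annotated starts are shown, 5′ to 3′, from RefSeq on build GRCm38.p6. Capitals mark the E-box CAGCTG; the E-box CAGATG was searched on both strands and was not in these stretches.
Adgrv1, chr13:81633145-81633394, minus strand: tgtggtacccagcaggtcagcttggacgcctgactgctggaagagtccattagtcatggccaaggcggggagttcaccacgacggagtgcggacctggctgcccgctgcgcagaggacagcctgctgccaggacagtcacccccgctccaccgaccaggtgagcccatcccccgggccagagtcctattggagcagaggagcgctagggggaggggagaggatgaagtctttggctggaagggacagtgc
Pdzd7, chr19:45045773-45046022, minus strand: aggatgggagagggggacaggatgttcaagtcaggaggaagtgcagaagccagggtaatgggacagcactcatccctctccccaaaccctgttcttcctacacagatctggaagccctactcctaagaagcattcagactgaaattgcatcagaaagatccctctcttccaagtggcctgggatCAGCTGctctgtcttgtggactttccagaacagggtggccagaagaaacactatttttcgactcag
Whrn, chr4:63495992-63496241, minus strand: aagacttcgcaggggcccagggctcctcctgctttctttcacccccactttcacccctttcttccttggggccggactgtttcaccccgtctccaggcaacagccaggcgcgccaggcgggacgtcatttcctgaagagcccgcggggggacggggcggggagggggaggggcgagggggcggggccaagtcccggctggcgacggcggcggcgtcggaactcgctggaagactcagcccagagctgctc
These starts differed in composition. Over the full windows of 300 bases (250 before and 50 after the start), Whrn had 70.0% G and C with 29 CpG, Adgrv1 63.3% with 14 and Pdzd7 51.0% with 2, where the median of 32851 RefSeq windows was 52.7% with 7 CpG. Pdzd7 held the E-box CAGCTG, beginning 66 bases before its start, as did 16.3% of all windows, and CAGATG was present in 17.2%. The 50 bases after this RefSeq start of Pdzd7 were not found unbroken in any GENCODE M21 transcript of the gene. Those of Adgrv1 and Whrn were found. The composition and E-box position given for Pdzd7 thus hold for this RefSeq start only. Of the 9 genes, 6 matched the promoter table; Clrn1 held a CAGATG beginning 140 bases before its start, and Xirp2 and Grxcr1 held neither motif. A match of letters is a description and not a binding site.

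The genes lie on 9 different chromosomes and differ widely in size. In the GENCODE M21 annotation, matched by Ensembl ID, Adgrv1 (chromosome 13) has a longest coding sequence of 18894 bases over 90 coding exons, against 2754 bases over 13 for Whrn (chromosome 4) and 3063 over 16 for Pdzd7 (chromosome 19). Xirp2 (chromosome 2) has 11352 bases over 8 coding exons, Ptprq (chromosome 10) 6900 over 45 and Loxhd1 (chromosome 18) 6648 over 40. Clrn1 (chromosome 3), Grxcr1 (chromosome 5) and Ush1g (chromosome 11) are short, with 750, 888 and 1383 bases over 4, 4 and 3 coding exons. Xirp2 is the member on the chromosome of Dnajc17, the gene targeted in the study.

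Levels are in TPM (transcripts per 1000000, scaled by transcript length), so they can be set side by side between genes. Ordered by mean over the 8 libraries, Whrn stood highest at 12.9 TPM, followed by Pdzd7 at 7.36, Loxhd1 at 6.76, Ptprq at 6.16, Clrn1 at 4.60, Grxcr1 at 3.04, Xirp2 at 2.88, Adgrv1 at 2.26 and Ush1g at 0.51. All 8 Whrn values lay above all Pdzd7 values, and all Adgrv1 values above all Ush1g values. Every other pair of neighbours in this order overlapped, so those adjacent ranks were not separated beyond the spread of the libraries, although Ptprq was above Clrn1 within each of the 8 libraries. Within the ankle-link core, the receptor Adgrv1 was thus below both of its scaffolds in all 8 libraries.

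**Figure D1:**
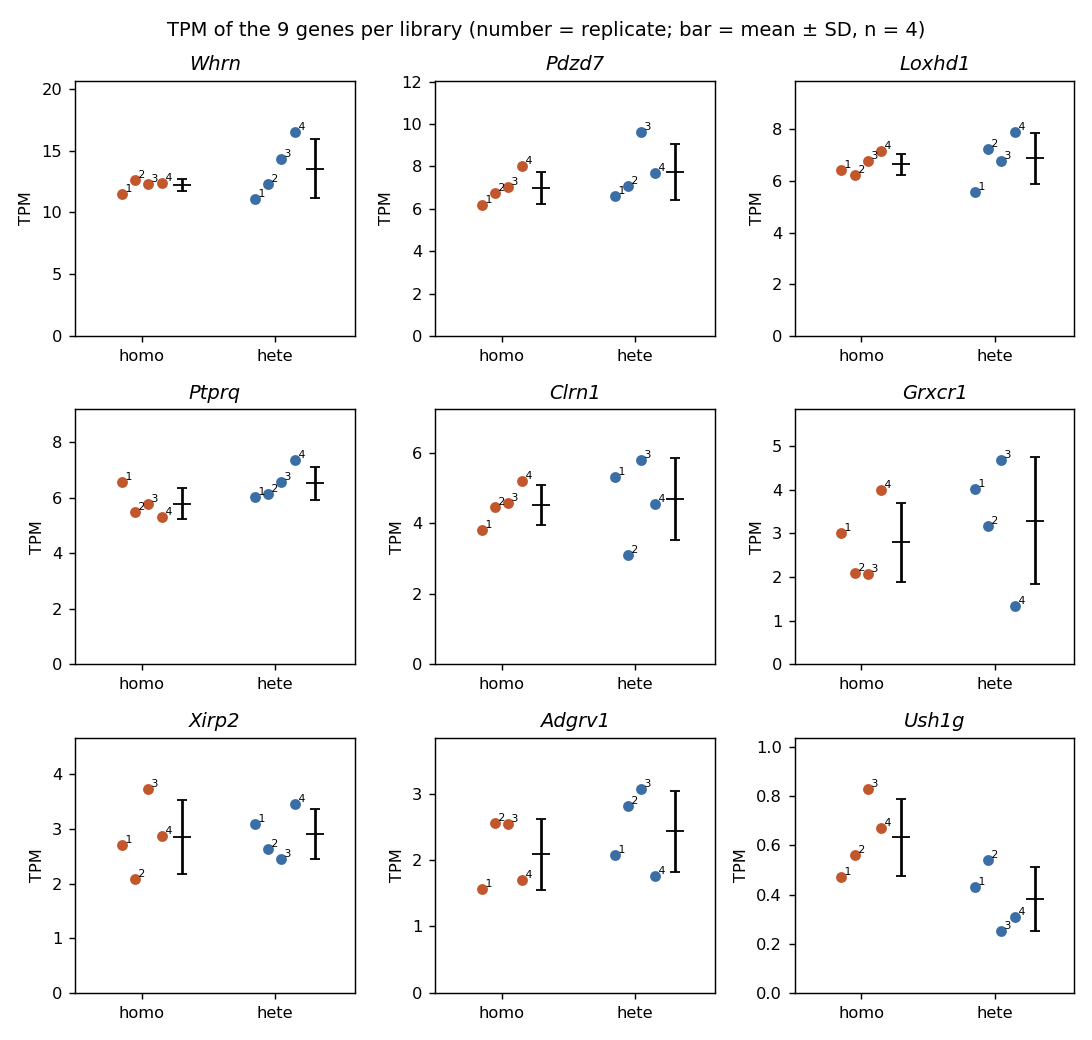
TPM of each gene (vertical axis, from 0) in the homo and hete libraries; points are libraries numbered by replicate and the bars give mean ± SD (n = 4). For all 9 genes the ranges of the groups overlap, and Grxcr1 in hete spans 1.33 to 4.67 TPM.

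No member passed the test between homo and hete libraries. Of the 9 genes, 8 passed the filter of a mean of at least 1 TPM over all libraries, and Ush1g did not. At a Benjamini-Hochberg adjusted p under 0.05 over 17811 tested genes (limma-trend on log2(TPM + 1)), 0 of the 8 were called, where 0.0112% of all tested genes were; at an unadjusted p under 0.05 there were 0 of 8, against 6.05% of all. The homo and hete ranges were separate for 0 of the 9 members, against 3.99% of all tested genes. The log2 fold changes, homo over hete, ran from -0.15 to -0.02 with a median of -0.12, where the median of all tested genes was 0.02. The median of the members was -0.05 without hete replicate 3, -0.07 without hete replicate 4, -0.07 without homo replicate 1 and -0.08 without homo replicate 2. The lower ends of their 95% intervals ran from -0.76 for Grxcr1 to -0.29 for Loxhd1, and the upper ends from 0.08 for Ptprq to 0.49 for Grxcr1. The log2 fold changes themselves were below 0 for 8 of 8 tested members, as for 43.7% of all tested genes. With no filter 8 of 9 were below 0, Ush1g being above. Without hete replicate 3 the count was 6 of 8, and without hete replicate 4 it was also 6 of 8. The 8 tested members come from the same libraries and the same cells and are not independent. In whole tissue, fewer hair cells and less RNA per hair cell cannot be told apart.

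Among the ankle-link genes, the adhesion receptor Adgrv1 (ENSMUSG00000069170) had 1.56, 2.56, 2.54 and 1.70 TPM in homo replicates 1 to 4, and 2.08, 2.81, 3.07 and 1.76 TPM in hete replicates 1 to 4. Homo replicates 1 and 4 were below every hete library, and the other homo values fell inside the hete range. Its log2 fold change was -0.15 (95% interval -0.56 to 0.26, SE 0.18; limma-trend adjusted p = 0.935). Whrn (ENSMUSG00000039137), the scaffold that binds the tails of the ankle-link proteins and is also found at stereocilia tips, had 11.51, 12.62, 12.31 and 12.38 TPM in homo and 11.06, 12.30, 14.33 and 16.50 TPM in hete libraries. The homo values sat close together inside the wider hete range, with a coefficient of variation of 3.95% in homo and 17.6% in hete. The log2 fold change of Whrn was -0.13 (95% interval -0.38 to 0.13, SE 0.12; limma-trend adjusted p = 0.909). Without hete replicate 4, its highest library, it was -0.03, and without hete replicate 1, its lowest, it was -0.21.

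Pdzd7 (ENSMUSG00000074818), the scaffold that organises the ankle-link complex together with Whrn, had 6.18, 6.74, 7.02 and 8.01 TPM in homo and 6.58, 7.08, 9.62 and 7.67 TPM in hete libraries. Hete replicate 3 was the highest and homo replicate 1 the lowest, with the other values mixed. Its log2 fold change was -0.12 (95% interval -0.40 to 0.16, SE 0.13; adjusted p = 0.918), and without hete replicate 3 it was -0.02. On this scale the differences of the 3 ankle-link genes were -0.15 for Adgrv1, -0.12 for Pdzd7 and -0.13 for Whrn. None was past the spread between libraries. With a pseudocount of 0.1 they were -0.21, -0.14 and -0.13, so how near they lay to each other depended on the scale.

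Ptprq (ENSMUSG00000035916), a receptor-type phosphatase of the shaft connectors, had 6.58, 5.50, 5.77 and 5.30 TPM in homo and 6.05, 6.15, 6.59 and 7.35 TPM in hete libraries. Homo replicates 2, 3 and 4 lay below every hete library, and homo replicate 1 lay within the hete range, just under hete replicate 3. The means were 5.79 ± 0.56 TPM in homo and 6.54 ± 0.59 TPM in hete (SD, n = 4 each), with a log2 fold change of -0.15 (95% interval -0.38 to 0.08, SE 0.10; limma-trend adjusted p = 0.874).

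Clrn1 (ENSMUSG00000043850) encodes clarin-1, a 4-pass membrane protein needed for bundle growth and for the hair cell synapse. It had 3.82, 4.46, 4.58 and 5.21 TPM in homo and 5.31, 3.10, 5.78 and 4.56 TPM in hete libraries. The hete libraries held both the highest and the lowest values, and the homo values stood between them. Its log2 fold change was -0.02 (95% interval -0.39 to 0.35, SE 0.17; adjusted p = 0.993). Loxhd1 (ENSMUSG00000032818), a protein of repeated PLAT domains needed for transduction in maturing hair cells, had 6.44, 6.22, 6.79 and 7.15 TPM in homo and 5.58, 7.26, 6.76 and 7.90 TPM in hete libraries. Here too all homo values fell inside the hete range, and the log2 fold change was -0.03 (95% interval -0.29 to 0.22, SE 0.11; adjusted p = 0.979).

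Grxcr1 (ENSMUSG00000068082), a glutaredoxin-like protein that controls the width and length of stereocilia, was the most variable of the tested members. It had 3.02, 2.09, 2.07 and 3.99 TPM in homo and 4.01, 3.17, 4.67 and 1.33 TPM in hete libraries, a 3.51-fold span between the highest and lowest library. Hete replicates 3 and 4 were those extremes, so the group with the higher mean also held the lowest value. The log2 fold change was -0.13 (95% interval -0.76 to 0.49, SE 0.28; limma-trend adjusted p = 0.967), the widest interval of the 8. It was -0.40 without hete replicate 4 and 0.02 without hete replicate 3.

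Ush1g (ENSMUSG00000045288), the scaffold of the upper tip-link density, was the member at the lowest level and the one with a higher mean in homo libraries. It had 0.47, 0.56, 0.83 and 0.67 TPM in homo and 0.43, 0.54, 0.25 and 0.31 TPM in hete libraries. Homo replicates 2, 3 and 4 lay above every hete library, and homo replicate 1 lay between hete replicates 1 and 2. The means were 0.63 ± 0.16 TPM in homo and 0.38 ± 0.13 TPM in hete (SD, n = 4 each), a ratio of 1.65. In the fit with no filter on low values its log2 fold change was 0.24 (95% interval -0.07 to 0.55, SE 0.14; limma-trend adjusted p = 0.816), on a scale that understates changes of genes at this level.

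Xirp2 (ENSMUSG00000027022) encodes an actin-binding protein of stereocilia that is also a component of striated muscle. It had 2.70, 2.09, 3.73 and 2.87 TPM in homo and 3.08, 2.63, 2.44 and 3.46 TPM in hete libraries. Both the highest and the lowest value were in homo libraries, replicates 3 and 2, and the log2 fold change was -0.03 (95% interval -0.38 to 0.33, SE 0.16; adjusted p = 0.990). Of 12 skeletal muscle genes, 8 stayed under 1 TPM in all 8 libraries, among them the sarcomere giants Ttn, at 0.02 to 0.14 TPM in homo and 0.02 to 0.11 TPM in hete, and Neb, at 0.14 to 0.48 TPM in homo and 0.25 to 0.56 TPM in hete. The related muscle gene Xirp1 was at 0.04 to 0.19 TPM in homo and 0.03 to 0.16 TPM in hete libraries. These 8 were picked for their low level, so Xirp2, at 2.09 TPM or more, was above them by that choice. Other muscle genes passed Xirp2 in some libraries. Tnnt3 was at 4.91 TPM in homo replicate 2 and Mylpf at 8.83 TPM in homo replicate 1, beside 2.09 and 2.70 TPM for Xirp2.

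**Figure D2:**
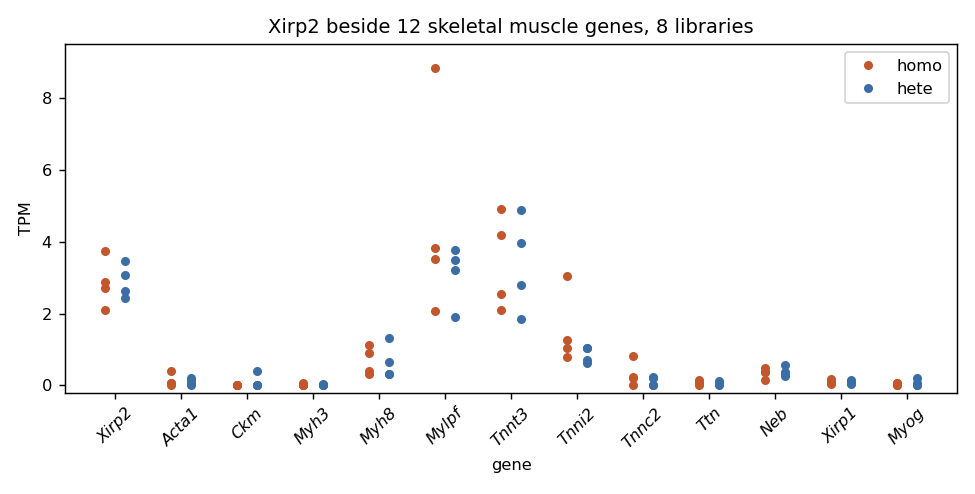
TPM (vertical axis) of Xirp2 and of 12 skeletal muscle genes in the 4 homo and 4 hete libraries, one point per library. Xirp2 lies at 2.09 to 3.73 TPM, above Ttn, Neb and Xirp1, while Mylpf, Tnnt3 and, in homo replicate 1, Tnni2 reach the level of Xirp2.

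The muscle genes that did reach 1 TPM were led by the fast myosin light chain Mylpf, with 8.83, 2.06, 3.82 and 3.52 TPM in homo and 1.90, 3.77, 3.49 and 3.21 TPM in hete libraries. Homo replicate 1 was highest for Mylpf and for the troponin gene Tnni2, at 3.03 TPM against 0.62 to 1.26 TPM in all other libraries. In the same library Tnnt3 was at 2.11 TPM, and Xirp2, at 2.70 TPM, was inside the range of the others. The source of the Xirp2 RNA was not tested. The summed level of the 12 muscle genes was 8.88 to 15.5 TPM in homo and 7.0 to 10.7 TPM in hete libraries.

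Across libraries the members did not follow one common profile. Hete replicate 3 was the highest library for Pdzd7, Clrn1, Grxcr1 and Adgrv1, and hete replicate 4 for Whrn, Loxhd1 and Ptprq, so hete libraries held the highest value of 7 of the 8 tested members. Hete replicate 4 was also the lowest library for Grxcr1. The lowest values were spread over hete replicates 1, 2 and 4 and homo replicates 1, 2 and 4. The summed level of the 9 genes was 42.3 to 47.3 TPM in homo and 44.2 to 53.5 TPM in hete libraries, with hete replicates 3 and 4 above the others.

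**Figure D3:**
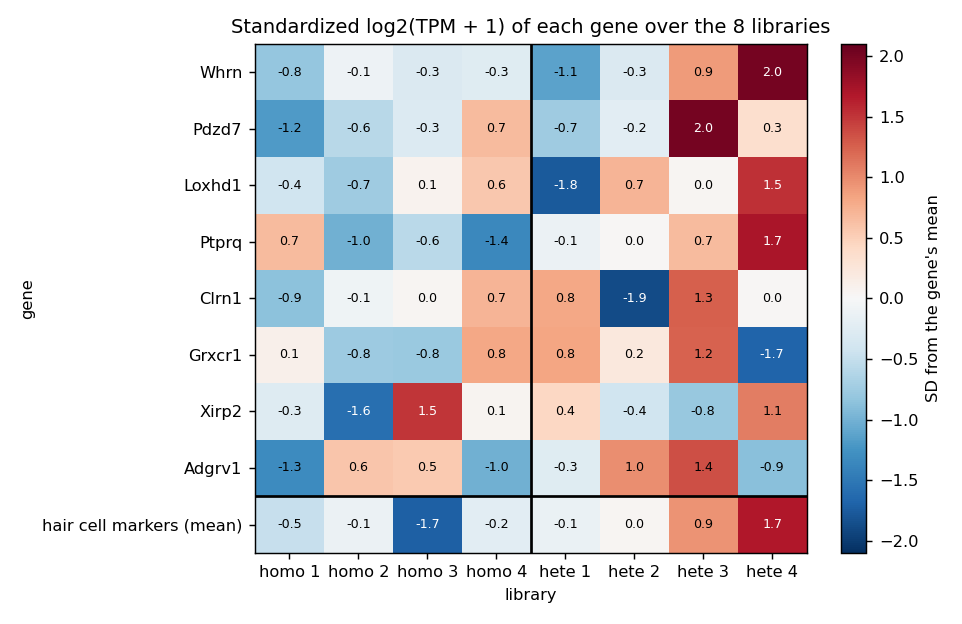
Each gene's log2(TPM + 1), in SD from its mean over the 8 libraries (colour and printed value), by library; the bottom row is the mean of 13 hair cell markers. Hete replicates 3 and 4 hold the strongest reds, with hete replicate 4 high for Whrn and low for Grxcr1.

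The same 2 libraries were the highest for general hair cell markers. The mean log2(TPM + 1) of 13 markers was 3.28, 3.34, 3.07 and 3.32 in homo and 3.34, 3.37, 3.52 and 3.65 in hete replicates 1 to 4, so the groups overlapped. The summed level of these markers was 206.7 to 282 TPM in homo and 273 to 478 TPM in hete libraries. Of 12 tested markers, 11 had a log2 fold change below 0 (median -0.16), 0 were called and 4 had an unadjusted p under 0.05. Among all tested genes, 43.7% were below 0 and 6.05% had an unadjusted p under 0.05. Lhx3 was the marker above 0, at 0.22 (SE 0.13). Otof, Chrna9 and Ocm, given next, had the smallest p of these markers. Otof, the synaptic calcium sensor, had 20.3 ± 1.76 TPM in homo and 25.3 ± 2.98 TPM in hete (SD, n = 4 each). Chrna9, an efferent receptor subunit, had 4.98 ± 0.82 TPM in homo and 6.73 ± 0.93 TPM in hete. Ocm, the calcium buffer of outer hair cells, had 90.2 ± 26.4 TPM in homo and 177 ± 73.7 TPM in hete. The log2 fold change of Ocm was -0.92, and -0.68 without hete replicate 4. The limma-trend adjusted p-values of Otof, Chrna9 and Ocm were 0.692, 0.727 and 0.760. Defining genes of hair cells were present in all libraries, with Myo6 at 75.0 to 80.5 TPM in homo and 71.9 to 90.3 TPM in hete, and Pou4f3 at 12.7 to 18.2 TPM in homo and 15.2 to 20.4 TPM in hete.

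The differences of the bundle genes were also taken relative to these markers, by subtraction and by a covariate, and the 2 ways gave different directions for several members. By subtraction, the level of a member minus the mean hair cell marker level, on the log2(TPM + 1) scale, was higher in homo than in hete by 0.07 to 0.19 for the 8 tested members, and by 0.01 to 0.13 without Ocm, an alternative added after the data were seen; these differences were not tested. The marker mean itself differed by -0.22, homo minus hete, and by -0.16 without Ocm. Any member that fell by less comes out higher by subtraction, and this scale understates changes of low genes. Whrn, for example, stood at 0.47 ± 0.13 relative to the markers in homo and 0.38 ± 0.10 in hete (SD, n = 4 each). With the marker mean as a covariate in the fit across all genes, the log2 fold change turned to 0.08 for Whrn (SE 0.13), 0.05 for Clrn1 (SE 0.23) and 0.07 for Loxhd1 (SE 0.15). It was -0.01 for Pdzd7 (SE 0.17) and -0.07 for Ptprq (SE 0.14). It moved further from 0 for Adgrv1 (-0.30, SE 0.25), Grxcr1 (-0.34, SE 0.39) and Xirp2 (-0.14, SE 0.22). In this fit 5 of the 8 members were below 0 (median -0.04), and no member was called, the lowest limma-trend adjusted p of a member being 0.982. The marker mean largely followed genotype, at 3.07 to 3.34 in homo and 3.34 to 3.65 in hete libraries. With 8 libraries the fit therefore separates genotype from marker level poorly. The SE of Grxcr1, for example, was 0.28 with genotype only. The changed directions are a description and draw no conclusion.

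**Figure D4:**
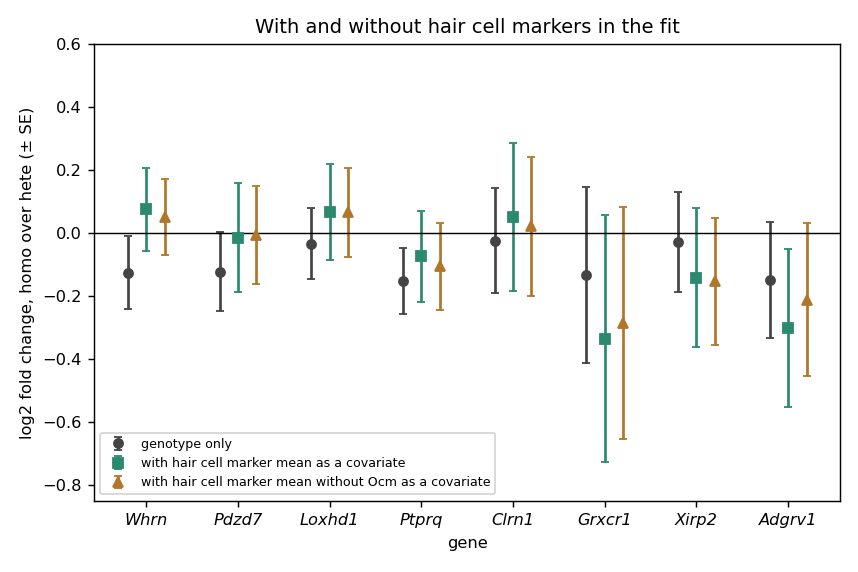
Log2 fold change, homo over hete (vertical axis, ± SE), of the 8 tested genes in the fit with genotype only and with the mean of the hair cell markers as a covariate, with and without Ocm. Whrn, Clrn1 and Loxhd1 cross 0 between the fits, while Adgrv1, Grxcr1 and Xirp2 lie further below 0 with the markers in the fit.

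Other genes of the Usher and link machinery, from a list of partners, were read from the same fit. Of 12 listed partners 10 were tested; 7 had a log2 fold change below 0 and 3 above (median -0.10), and 0 were called. Cib2, which binds the transduction channel and is linked to Usher syndrome, had 40.90, 43.46, 39.05 and 42.21 TPM in homo and 48.46, 48.04, 55.66 and 48.34 TPM in hete libraries. All homo values were below all hete values, a separation in this direction seen for 1.41% of all tested genes. Its log2 fold change was -0.27 with an SE of 0.07 (limma-trend adjusted p = 0.619). Gipc3, a PDZ protein needed for hearing, had a log2 fold change of -0.22 (SE 0.15). Strc, which encodes stereocilin of the horizontal top connectors, had -0.21 (SE 0.15). Cdh23, the cadherin of the upper part of the tip link, had -0.14 (SE 0.10). Without hete replicate 4 the value was -0.10 for both Gipc3 and Strc; Gipc3 was at -0.34 without hete replicate 1, Strc at -0.11 without homo replicate 4 and Cdh23 at -0.06 without homo replicate 1. Myo7a, the Usher myosin that moves these proteins, stood at 0.15 (SE 0.12), with 19.4 ± 2.42 TPM in homo and 17.5 ± 2.64 TPM in hete (SD, n = 4 each).

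Of 6 genes of the transduction complex or of mechanically gated channels, 5 were tested, 3 below and 2 above 0 (median -0.15), and 0 were called. Tomt, needed to bring the channel to the bundle, had 6.89, 6.50, 6.28 and 7.05 TPM in homo and 8.18, 7.6, 10.51 and 9.08 TPM in hete libraries. Its groups did not overlap either, with a log2 fold change of -0.35 and an SE of 0.11 (limma-trend adjusted p = 0.686). The channel-complex genes Tmie and Lhfpl5 both had -0.15 (SE 0.10 and 0.16), and Piezo2 had 0.07 (SE 0.12). With 1 library left out at a time, these ran from -0.20 to -0.08 for Tmie, -0.24 to -0.05 for Lhfpl5 and -0.03 to 0.16 for Piezo2; the value nearest 0 for Tmie and Lhfpl5 and the highest for Piezo2 came without hete replicate 4, and Piezo2 was below 0 without hete replicate 1.

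**Figure D5:**
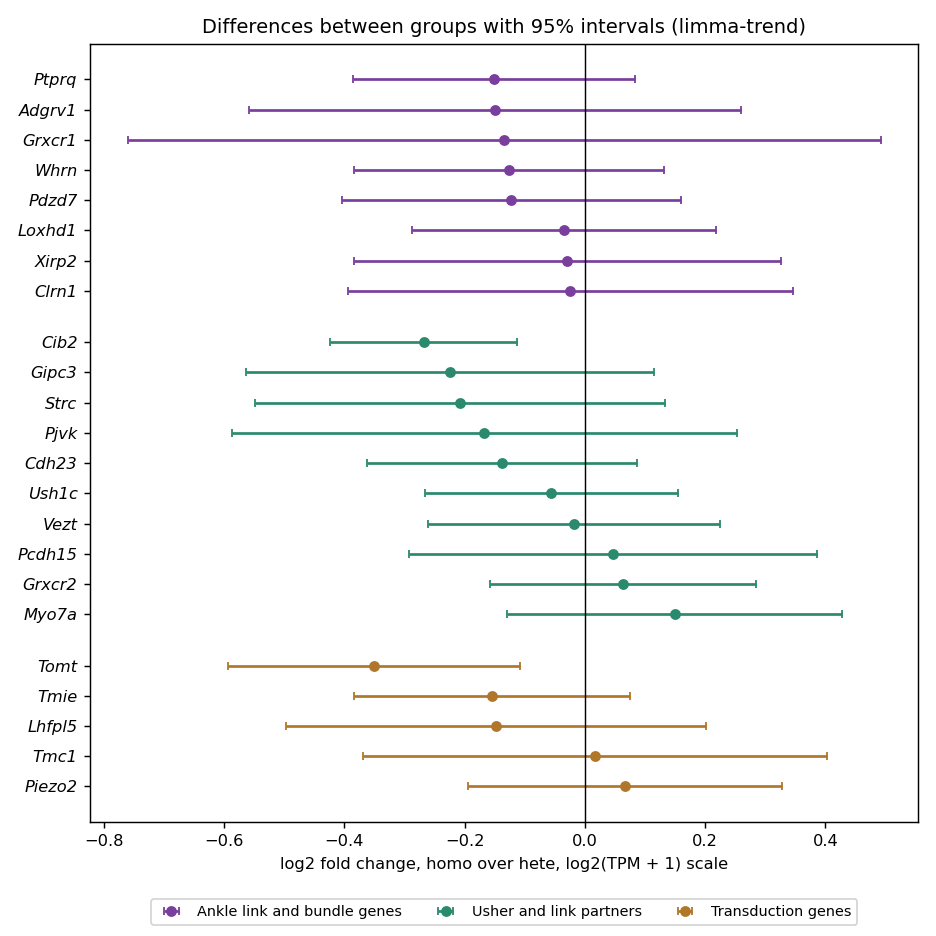
Log2 fold change, homo over hete (horizontal axis, log2(TPM + 1) scale), with its 95% interval for 8 ankle-link and bundle genes, 10 partners and 5 transduction genes. The intervals of all 8 bundle genes include 0; those of Cib2 and Tomt lie below 0 before adjustment.

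The gene ontology column of the deposited table assigns 5 of the 9 members (Pdzd7, Whrn, Clrn1, Ush1g and Loxhd1) to sensory perception of sound, a term carried by 0.651% of tested genes. It assigns Pdzd7 and Whrn to the ankle link, and gives neither term to Adgrv1, Ptprq, Xirp2 or Grxcr1. The other 112 tested genes with sensory perception of sound had 55 log2 fold changes below 0 and 57 above (median 0.00), with 0 called. The other 34 tested genes with the term stereocilium had 15 below and 19 above (median 0.02), with 0 called. In the authors' deposited table of gene ontology enrichment, 0 of the 9 members and 0 of the hair cell markers are among the 60 gene names given for 387 terms. Beside the 78317 genes measured, 60 names are few, so these counts of 0 say little about the members or the markers.

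The 6 protein-coding genes whose profile over the 8 libraries was nearest to the mean standardized profile of the tested members were Mpp7, Kank2, Rexo4, Klc4, Plekhb2 and Pik3r3. The root mean square difference from that profile was 0.22 SD for Mpp7 and 0.29 to 0.33 SD for the others, while it was 0.43 SD for Pdzd7, the nearest member, and 1.27 SD for Grxcr1, the farthest. Mpp7 had 7.94, 7.85, 9.30 and 10.04 TPM in homo and 8.55, 8.57, 11.69 and 11.25 TPM in hete libraries. It was chosen from the named protein-coding genes among the 17811 tested, over 8 libraries, so a near match of this size is a description only.

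Across the whole table, the libraries gave 28159 to 28969 genes above 0 TPM, and 2 genes were called: Metap1d, a mitochondrial methionine aminopeptidase, rose with 50.4 ± 2.94 TPM in homo and 31.1 ± 1.5 TPM in hete (SD, n = 4 each; limma-trend adjusted p = 0.0146), and the pseudogene Gm4353 fell with 0 to 0.36 TPM in homo and 7.84 to 11.6 TPM in hete libraries (adjusted p = 4.24e-05). The Metap1d call was lost when homo replicate 2, homo replicate 3, hete replicate 1 or hete replicate 2 was left out, with limma-trend adjusted p-values between 0.055 and 0.11 and log2 fold changes of 0.65 to 0.70, beside 0.68 with all libraries. Dnajc17 itself had 29.33, 27.65, 31.08 and 18.04 TPM in homo and 26.51, 25.45, 25.09 and 22.06 TPM in hete libraries (log2 fold change 0.07, SE 0.15; adjusted p = 0.969). A value for the whole gene in mixed tissue is blind to an exon lost from a small share of cells, and is no check of the genotype labels. Log2 fold changes were above 0 for 9 of 12 supporting cell, 10 of 10 spiral ganglion neuron and 8 of 8 glia markers. Among all tested genes, 10032 of 17811 were above 0. The genes with the smallest p in these lists were Otog at 0.28 (SE 0.07), Syt1 at 0.31 (SE 0.07) and Egr2 at 0.62 (SE 0.26). Egr2 was at 0.44 without hete replicate 1 and at 0.46 without homo replicate 4. Other markers differed, such as the neuron marker Nefm at 0.02 (SE 0.34) and the supporting cell marker Hes5 at -0.46 (SE 0.20). Mesenchyme markers had 6 of 8 above 0 (Postn 0.17, SE 0.10, and 0.09 without homo replicate 1), stria and melanocyte markers 2 of 8 (Kcnq1 -0.20, SE 0.11, and -0.10 without hete replicate 4), blood and immune markers 3 of 10 (S100a9 1.77, SE 0.57, and 1.17 without homo replicate 1) and muscle markers 3 of 3 tested (Tnni2 0.38, SE 0.26), and 0 genes of these lists were called. Summed levels of supporting cell markers were 7051 to 7536 TPM in homo and 6174 to 6930 TPM in hete libraries, and their part in the levels of the bundle genes was not tested.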

How the data were processed

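RNA was measured in 4 homo and 4 hete libraries of mouse basilar membrane taken on postnatal day 6. Each stranded mRNA library was made from 1 µg of total RNA, per the labels' protocols. The authors deposited TPM per gene, with each library adding up to 1000000; fastp, HISAT2, StringTie, RSEM, DESeq2 and build GRCm39 are named, without roles, per the submitters' processing notes. TPM keeps no record of depth, so sequencing depth is unknown and no counting interval was computed. The authors also deposited their gene ontology enrichment, whose p-values were not reused.

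Genes averaging 1 TPM or more in the 8 libraries were fitted on log2(TPM + 1) with limma 3.58.1 (R 4.3.3; eBayes with trend and robust options), genotype as the single term. Benjamini-Hochberg adjustment ran over all 17811 tested genes. The steps were tested on simulated data. Fold changes are homo over hete and understate changes of low genes. Named genes are the members, Dnajc17, the called genes, in each list the genes with the smallest p, the most abundant tested muscle gene, and the 6 nearest profiles; other genes were named after their values were seen. The members and lists were chosen with earlier results of these data known. GENCODE M21 and RefSeq are on GRCm38, so their coordinates are not those of the authors' build. A deposited table of splicing event totals names no genes and was not used. Alternatives were other scalings, filters, a pseudocount of 0.1, a replicate block, eBayes without the robust option, hair cell markers as a covariate and each library left out. A listed partner gene is not reported here. Plots used matplotlib 3.10.9 (Python 3.11.15).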

Additional observations from a re-analysis of the deposited data

How the results depend on the processing

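The count of members called stayed at 0, as did that of the listed partner and transduction genes, under every alternative run, and the order of the 9 members by level was the same with the median in place of the mean. The count of all genes called was 2. It was 3 with at least 5 TPM in 4 libraries, 1 with no filter and 1 with the replicate block. With the hair cell marker mean as a covariate it was 1, and 1 with that mean without Ocm. It ran from 1 to 5 when each library was left out. With 1 library left out at a time, the log2 fold change ran from -0.25 to -0.06 for Adgrv1, -0.19 to -0.02 for Pdzd7, -0.21 to -0.03 for Whrn, -0.17 to 0.069 for Clrn1, -0.21 to -0.10 for Ptprq, -0.13 to 0.070 for Xirp2, -0.12 to 0.027 for Loxhd1, -0.40 to 0.025 for Grxcr1, -0.014 to 0.24 for Dnajc17 and -0.030 to 0.16 for Piezo2. The median over the members was -0.04 with the covariate and -0.06 with the covariate without Ocm. Over all alternatives the lowest adjusted p of a member was 0.816.

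With the hair cell marker mean as a covariate the direction turned for Whrn (0.075), Clrn1 (0.052), Loxhd1 (0.066), Dnajc17 (-0.16), Tmie (0.053), Lhfpl5 (0.11) and Plekhb2 (0.0008). With that mean without Ocm it turned for Whrn (0.050), Clrn1 (0.022), Loxhd1 (0.066), Dnajc17 (-0.13), Tmie (0.019) and Lhfpl5 (0.049); the cause was not tested. Among these ranges the direction turned for Clrn1 without homo replicate 1, hete replicate 1 or hete replicate 3, for Xirp2 without homo replicate 2 or hete replicate 4, for Loxhd1 without hete replicate 4, for Grxcr1 without hete replicate 3, for Dnajc17 without homo replicate 3 and for Piezo2 without hete replicate 1. The call of Metap1d ended with no filter, the replicate block, both covariates, and without homo replicate 2 or 3 or hete replicate 1 or 2, while its log2 fold change there was 0.65 to 0.71 (0.68 in the fit reported).

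Libraries with the same replicate number did not deviate together: the correlations of their deviations over genes were -0.08, -0.03, 0.05 and 0.01. No homo library correlated best with its own number, so the replicate numbers gave no sign of a pairing. A pairing with an effect smaller than the noise between libraries would not show here, and the labels do not state one. With at least 5 TPM in 4 libraries, 4 members passed the filter, and the rest have no value there. TPM without depth gives no limit of detection for Ush1g.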
